A study of Mus musculus with 5 samples.

Results

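Pi16-negative non-contractile fibroblasts were defined here as cell barcodes with collagen and other matrix transcripts but with neither Pi16, which marks adventitial fibroblasts, nor a contractile profile. They were 81 barcodes, of which 69 came from the sensitive and 12 from the resistant T cell library, out of 6810 barcodes kept in these libraries, 10065 sequenced in them and 11119 in the series. Kept barcodes had 500 or more genes detected and no more than 10% of transcripts from mitochondria. It was matrix-gated when it carried unique molecular identifiers (UMIs, which count transcripts) of at least 3 of the 6 matrix genes Col1a1, Col1a2, Col3a1, Dcn, Lum and Pdgfra and none of Ptprc or Epcam, the genes of a pan-leukocyte and an epithelial surface protein. Of 1383 matrix-gated barcodes, 148 had at least 3 UMIs of both Acta2 and Tagln and are called contractile, 1154 of the others had a Pi16 UMI and are called Pi16+, and the remaining 81 are the cells described here. The cells were thus chosen by their measured Pi16, Acta2, Tagln, Ptprc, Epcam and matrix gene UMIs, and levels of the rule's genes are a description.

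The cells came from syngeneic tumors of 4T1-Thy1.1 cells, which model triple-negative breast cancer, grown in the mammary fat pad of 12-week-old BALB/c mice. Mice of both T cell libraries had received doxorubicin (DOX), a DNA-damaging chemotherapy drug, intravenously at 5 mg/kg, 3 doses given 3 days apart, and tumors were classed as sensitive where growth was held back and as resistant where it was not. Each T cell library pooled 3 tumors, and cancer and other non-T cells had been removed on magnetic columns, so fibroblasts in it are carry-over and their share is not their share of the tumor. The other 3 libraries held whole tumor labelled control (saline), sensitive and resistant. The source field of the resistant and control whole-tumor libraries named a sensitive tumor. Each group had 1 library, so no difference below has a replicate check and no p-value is given. A range in brackets after a share or a ratio is a 95% interval, which covers counting error only. For levels per cell and for depth, the range in brackets runs from the lowest to the highest cell.

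Fibroblasts build and remodel the extracellular matrix and secrete growth factors and chemokines. Adventitial fibroblasts around vessels express Pi16, Cd34 and Clec3b and are regarded as a reserve from which specialised fibroblasts arise, whereas contractile myofibroblasts hold Acta2 and Tagln. In tumors, fibroblasts with neither profile include inflammatory cells that secrete chemokines and matrix-remodelling cells that secrete metalloproteinases.

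The label was checked with 5 fibroblast markers. Of these Col3a1 and Dcn are also in the rule, so only Sfrp2, Cpxm1 and Aebp1 bear on the label. Summed over the cells, these 3 reached 3970 CPM (UMIs of a gene per 1000000 UMIs of the cells summed) in sensitive and 8012 CPM in resistant cells, with a UMI of at least 1 of them in 65 of 69 and 11 of 12. The same sum was 6.59 and 4.12 CPM in T cell-gated barcodes, 158 and 264 CPM in Epcam+ gated barcodes and 5778 and 6124 CPM in Pi16+ barcodes of those libraries. Of the genes of other cell types, 11 (Cd3d, Cd3e, Cd3g, Tyrobp, Fcer1g, Pecam1, Cdh5, Krt8, Krt18, Cldn7 and Rgs5) were used as a stricter exclusion. A UMI of any of these was found in 15 of the 69 sensitive and 4 of the 12 resistant cells, and their part in the results was not tested other than by leaving those cells out.

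The filters kept 3560 of 3949 sensitive and 3250 of 6116 resistant barcodes, and the kept ones had median mitochondrial shares of 2.39% and 4.93%. The cells made up 1.94% (1.51 to 2.45) of kept sensitive barcodes and 0.369% (0.191 to 0.644) of kept resistant ones. Among matrix-gated barcodes they made up 8.53% (6.70 to 10.7) of 809 and 2.09% (1.08 to 3.62) of 574. The gap was narrower with the rule applied to barcodes thinned to 3000 UMIs each, with those under 3000 UMIs left out. The cells then rose from 69 to 125 sensitive and from 12 to 73 resistant. A barcode that lost its Pi16 UMIs in thinning could count among them. Median depth of matrix-gated barcodes before thinning was 13170 UMIs in the sensitive and 13614 UMIs in the resistant library. The shares rose to 16.4% (13.8 to 19.2) of 764 sensitive and 12.1% (9.59 to 15) of 604 resistant matrix-gated barcodes, and the intervals overlapped. Of kept barcodes the shares were then 4.68% (3.91 to 5.55) and 2.76% (2.17 to 3.46), and the intervals did not overlap. When Pi16+ barcodes were thinned to 1000 UMIs, Pi16 went unseen in 21.3% of sensitive and 21.9% of resistant ones, and at 2000 UMIs in 11.9% and 10.8%.

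Absence of Pi16 was not limited to shallow barcodes, and in the sensitive library it took a U shape over depth. Among sensitive non-contractile matrix-gated barcodes, Pi16 was absent from 22.4% (15.2 to 31.1) of 116 under 5000 UMIs. It was absent from 3.49% (2.01 to 5.60) of 459 between 5000 and 20000 UMIs and from 18.1% (12.3 to 25.3) of 149 with at least 20000. In the resistant library the same bins gave 6.12% (1.28 to 16.9) of 49, 1.70% (0.625 to 3.65) of 354 and 2.78% (0.577 to 7.90) of 108. The deepest bin held 27 sensitive and 3 resistant cells. Just outside the rule's cut, 30 sensitive and 7 resistant barcodes had exactly 1 Pi16 UMI, and 12 and 9 barcodes had only 2 of the 6 matrix genes. Just inside it, 3 sensitive and 2 resistant cells had exactly 3 matrix genes. At least 3 Tagln UMIs were found in 14 sensitive and 3 resistant cells, and at least 3 Acta2 UMIs in 3 and 1. The rule left out only barcodes that had both, so the cells were not free of contractile transcripts. Median depth of the cells was 8104 UMIs (707 to 68706) for sensitive and 12284 UMIs (2527 to 25787) for resistant ones, and their median mitochondrial share was 1.87% and 3.17%. The T cell libraries had 31 barcodes in common, and 1 sensitive cell described here carried one of these.

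**Figure D1:**
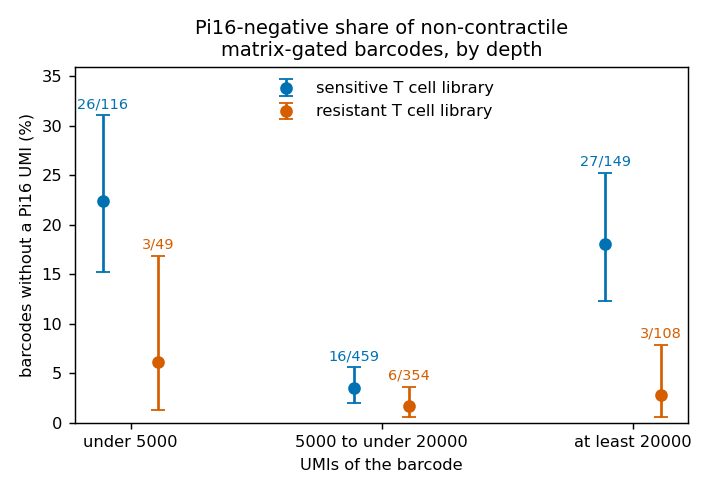
Share of non-contractile matrix-gated barcodes without a Pi16 UMI (y axis, percent) in bins of UMIs per barcode (x axis), for the sensitive and resistant T cell libraries, with 95% Clopper-Pearson intervals as bars. The sensitive library is at 22.4% in the shallowest bin, 3.49% in the middle bin and 18.1% in the deepest, and the resistant library is at or below 6.12% in each.

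The matrix genes of the rule were carried by most cells at a wide range of levels. Col1a1, which encodes a chain of type I collagen (ENSMUSG00000001506, chromosome 11, 94936224 to 94953042, plus strand, GRCm38), had UMIs in all 69 sensitive and all 12 resistant cells. Per 10000 UMIs of a cell it ranged from 3.35 through a median of 41.8 to 331 in the sensitive and from 3.41 through 74.4 to 144 in the resistant library, and the ranges overlapped. Dcn, the gene of the small proteoglycan decorin, was seen in 66 of 69 sensitive (0 to 423, median 65.2) and 10 of 12 resistant cells (0 to 178.5, median 57.4). Pdgfra, a receptor tyrosine kinase of fibroblasts, was seen in 44 and 8 cells at medians of 1.23 and 0.730. The ratio of CPM between the libraries, sensitive over resistant, lay between 0.688 for Col1a2 and 1.14 for Dcn over all 6 matrix genes, short of 2-fold in each.

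Clustering of the 81 cells alone gave 2 clusters, each named here only by its leading gene. Of the cells, 52 (44 sensitive, 8 resistant) were Clec3b-led and 29 (25 sensitive, 4 resistant) were Mmp10-led. The clusters came from the expression of these same cells, over 2000 variable genes, so the levels that separate them are a description. The Mmp10-led share was alike in both libraries, at 36.2% (24.99 to 48.7) and 33.3% (9.92 to 65.1). The Mmp10-led cells were deeper, with a median of 24969 UMIs against 6210, and so supplied 63.1% of the UMIs of the sensitive cells but 35.97% of those of the resistant cells. Of the 27 deepest sensitive cells 20 were Mmp10-led, and of the 26 under 5000 UMIs 21 were Clec3b-led.

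The first cluster was led by Clec3b, which encodes the plasminogen-binding protein tetranectin (ENSMUSG00000025784, chromosome 9, 123150946 to 123157432, plus strand). It was seen in 34 of 44 sensitive cells of this cluster (0 to 177 per 10000 UMIs, median 9.27) and in 6 of 8 resistant ones (0 to 32.5, median 13.4). It had no UMI in the 29 Mmp10-led cells, and its level there was at most 0.00422 of that in the Clec3b-led cells. The other leading genes were Ptx3, a secreted pattern-recognition protein of innate immunity, Abi3bp, a matrix protein, Sfrp4, a secreted Wnt antagonist, Apoe, an apolipoprotein, and Lpl, the lipoprotein lipase of fat tissue. Summed over both libraries Ptx3 stood at 599 CPM in this cluster against 7.12 in the other, Abi3bp at 727 against 14.2 and Lpl at 951 against 27.1. Cxcl12, a chemokine that retains leukocytes, stood at 1642 CPM against 96.8, and Dpt, the gene of dermatopontin, at 540 against 21.4. Apoe rested on few cells, with 74.7% of its sensitive UMIs in 1 cell, and in the resistant library it was higher in the Mmp10-led cells, at 71.7 against 20.2 CPM. Of the 9 measured genes of the adventitial list, 3 were at least 2-fold lower and none higher in the Mmp10-led cells, against 7.0% lower and 10.4% higher over all genes measured. The median ratio of the list, Mmp10-led over Clec3b-led, was 0.567, and it ran from 0.00422 at most for Clec3b and 0.0395 for Dpt to 1.52 for Fn1, the fibronectin gene with most UMIs of the list.

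The second cluster was led by Mmp10, the gene of stromelysin 2 (ENSMUSG00000047562, chromosome 9, 7502352 to 7510240, plus strand). Mmp10 had UMIs in 8 of 25 sensitive cells of this cluster (0 to 53.5 per 10000 UMIs, median 0) and in 2 of 4 resistant ones (0 to 63.1, median 21.3), and in none of the Clec3b-led cells. Hmga2, a chromatin protein of embryonic and tumor cells, was the more widely shared, in 14 of 25 sensitive (0 to 26.0) and 2 of 4 resistant cells (0 to 1.97). Against the Clec3b-led cells, where neither had a UMI, Mmp10 was at least 111-fold and Hmga2 at least 55.98-fold higher with 0 read as 3 counts. The other leading genes were Crabp1, a retinoic acid-binding protein, Slpi, a secreted protease inhibitor, Tnfrsf9, the receptor 4-1BB, and Upp1, a uridine phosphorylase.

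Over the lists, 6 of 22 matrix proteases and inhibitors were at least 2-fold higher and 4 lower in the Mmp10-led cells, as were 1 and 3 of 9 growth factors, against 10.4% higher and 7.0% lower over all genes measured. Inhba, which encodes the activin A subunit, was seen in 18 of 25 sensitive and 4 of 4 resistant Mmp10-led cells and stood at 1348 CPM against 90.1 in the Clec3b-led cells, a ratio of 14.97 (11.0 to 20.8). Tnc, the gene of tenascin C, stood at 2260 against 354 CPM, a ratio of 6.38 (5.45 to 7.53), but within the resistant library it was lower in the Mmp10-led cells, at 376.6 against 735.5 CPM. Ass1, an enzyme of arginine synthesis, stood at 1610 against 75.4 CPM, and the gelatinase gene Mmp9 at 372 against 12.6 CPM. Hmga2 was also found in Epcam+ gated barcodes, at 135 CPM in sensitive and 136 in resistant tumors, while Mmp10 was there at 3.67 and 5.38 CPM and Crabp1 at 0 in both. Slpi was at 899 and 1391 CPM in Epcam+ gated barcodes, beside 1067 CPM in the Mmp10-led cells.

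Epithelial, endothelial and mesothelial markers had a higher summed level in the sensitive Mmp10-led than in the sensitive Clec3b-led cells. The Mmp10-led cells were also the deeper ones, which bears on each count of cells with a UMI. Over the list of 11 epithelial and cancer cell genes, 10 of 25 sensitive Mmp10-led cells had a UMI and 4 had at least 10, against 5 and 0 of 44 Clec3b-led cells. In the resistant library 3 of 4 Mmp10-led and 1 of 8 Clec3b-led cells had one. The list summed to 294 CPM in sensitive and 377 CPM in resistant Mmp10-led cells, 13.2 and 20.2 CPM in Clec3b-led cells and 7339 and 7798 CPM in Epcam+ gated barcodes. A single sensitive Mmp10-led cell held 147 of the 150 UMIs of 7 endothelial genes. The same cell held 64 of the 82 UMIs of pericyte and smooth muscle genes in sensitive Mmp10-led cells. It had no UMI of Dcn, Lum, Pdgfra, Sfrp2, Cpxm1 or Aebp1. Another, with 2849 UMIs, held 21 of the 27 UMIs of T cell genes in these cells. Myeloid genes summed to 15.5 CPM in sensitive Mmp10-led and 26.4 CPM in sensitive Clec3b-led cells, neutrophil genes to 17.0 and 37.0 CPM and pericyte and smooth muscle genes to 127 CPM in both. Mesothelial genes had a UMI in 12 of 25 sensitive Mmp10-led and 7 of 44 sensitive Clec3b-led cells. A stricter exclusion gene was found in 8 of 25 and 3 of 4 Mmp10-led cells, against 7 of 44 and 1 of 8 Clec3b-led cells. Of the cells with the highest doublet scores, 3 sensitive and 1 resistant were described here and all 4 were Mmp10-led. Of the 3 fibroblast markers outside the rule, Sfrp2 had a UMI in 10 of 25 sensitive and 0 of 4 resistant Mmp10-led cells. Cpxm1 had one in 18 and 2 of these cells, and Aebp1 in 22 and 3. Sfrp2 stood at 172 and 0 CPM there, against 1158 and 7264 CPM in Clec3b-led cells. The part of the markers of other cell types in the Mmp10-led profile was not tested beyond leaving out the cells with a stricter exclusion gene. Whether every Mmp10-led barcode was a fibroblast was not tested.

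The cut between clusters changed with its settings. A finer resolution gave 5 clusters and fewer components gave 3. When the 69 sensitive cells were clustered alone, they fell into groups of 47, 17 and 5 cells, the first led by Clec3b, the second by Mmp10, and the third by Cxcl10, Cd74, Clu and the keratin gene Krt19. The 30 leading genes of the first and second groups then served as gene sets that the resistant cells had no part in choosing. The Mmp10 set exceeded the Clec3b set in 22 of 69 sensitive cells, on which the sets were chosen, and in 4 of 12 resistant ones, or 33.3% (9.92 to 65.1). It did so in 4 of 655 sensitive and 2 of 499 resistant Pi16+ barcodes and in 32 of 85 sensitive and 10 of 63 resistant contractile barcodes. Over all matrix-gated barcodes that came to 7.17% (5.49 to 9.17) of sensitive and 2.79% (1.60 to 4.49) of resistant ones. After thinning to 2000 UMIs the shares were 7.44% (5.68 to 9.53) and 2.82% (1.62 to 4.54). Without thinning, 31 and 16 barcodes lay within 2-fold of the cut. The sensitive count includes the 22 cells that had a part in choosing the sets. The Mmp10 set also exceeded the Clec3b set in 85.5% and 83.5% of T cell-gated and 87.9% and 82.9% of Epcam+ gated barcodes, at medians of 7.73 and 6.26 and of 11.4 and 8.96 UMIs per 10000, so a barcode can pass this cut by a low Clec3b set alone.

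**Figure D2:**
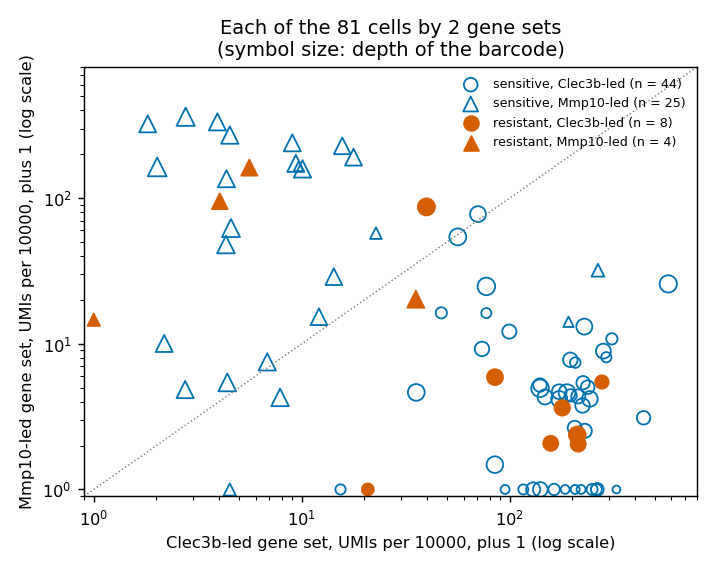
Summed level of the Clec3b-led gene set (x axis) against that of the Mmp10-led gene set (y axis), in UMIs per 10000 plus 1 on log axes, for each of the 81 cells (color: library; circles: Clec3b-led, triangles: Mmp10-led; symbol size: depth; dotted line: equal levels). The Mmp10-led set is the higher one in 22 of 69 sensitive and 4 of 12 resistant cells.

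Across genes, Mmp10-led and Clec3b-led cells were compared for 1758 genes that had 100 or more UMIs in the 81 cells. A gene was called when its CPM ratio passed 2-fold. Mmp10-led cells had 182 genes (10.4%) called higher and 123 (7.0%) called lower. Most UMIs of both clusters came from the sensitive library, and within the 12 resistant cells 146 of the 182 and 107 of the 123 genes had the same direction. Of the 16 hypoxia and glycolysis genes measured, 8 were called higher and none lower, at a list median of 2.005 against 1.06 for all genes, while Adm stood at 0.862 and Hif1a at 0.587. They included Slc2a1, the glucose transporter GLUT1, at 320 against 39.8 CPM (ratio 8.05, 5.04 to 13.6), and Ndrg1, a hypoxia-induced stress gene, at 1159 against 163 CPM (7.10, 5.62 to 9.07). Vegfa, the vascular growth factor, had a ratio of 4.23 (2.69 to 6.98), and Bnip3, a mitophagy receptor, 3.57 (2.80 to 4.61). Slc2a1 was seen in 75.9% of Mmp10-led and 17.3% of Clec3b-led cells, which differed in depth. With cells thinned to 5000 UMIs each, 6 of the 8 hypoxia genes still measured were past 2-fold, and without cells that carried a stricter exclusion gene 7 of 14 were.

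Interferon gamma response genes were called higher in 7 of 11 and lower in 1, and all 3 measured genes of class II antigen presentation and antigen-presenting fibroblasts (Cd74, H2-Ab1 and Slpi) were higher. These rested on few cells, since 84.6% of the Cd74 UMIs of the Mmp10-led cells came from 1 cell. Without cells that carried a stricter exclusion gene, 1 of 5 interferon gamma response genes was higher and 1 lower, and of the class II and antigen-presenting fibroblast list 1 gene was still measured and was higher. H2-Ab1, a class II chain, was spread wider, in 62.1% of Mmp10-led cells (ratio 4.34, 2.73 to 7.24). Cd74, H2-Ab1 and Slpi were also among the 30 leading genes of the third group of sensitive cells given above. Proteoglycans and matrix glycoproteins were lower in 14 of 29, of which 12 were also lower without cells that carried a stricter exclusion gene, and higher in 1, Tnc. The type III collagen gene Col3a1 stood at 2347 against 10130 CPM. Of complement genes 4 of 8 were lower and none higher, among them C3 at 632 against 2532 CPM, and all 4 were also lower without those cells.

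The promoters of hypoxia genes are shown because 8 of the 16 were called higher and because hypoxia-inducible factors bind the letters ACGTG. Of the 8 hypoxia genes called higher, 7 had an entry in the RefSeq promoter table (GRCm38.p6, 250 bases before to 50 after each start), and 6 of these held ACGTG on either strand (read as CACGT on the printed strand where it lies on the other). Of the 8 list genes not called higher, 5 held it too, and it was found in 19.6% of all 32851 windows and 21.8% of 27025 genes. A match is a description of the letters, not of binding. Capitals mark ACGTG or CACGT in 3 genes with 1 window each, printed 5′ to 3′ on the gene's strand. The window of Slc2a1 is chr4:119108495-119108794 (plus), that of Bnip3 chr7:138909457-138909756 (minus, with overlapping matches on both strands) and that of Pgk1 chrX:106186850-106187149 (plus).
Slc2a1: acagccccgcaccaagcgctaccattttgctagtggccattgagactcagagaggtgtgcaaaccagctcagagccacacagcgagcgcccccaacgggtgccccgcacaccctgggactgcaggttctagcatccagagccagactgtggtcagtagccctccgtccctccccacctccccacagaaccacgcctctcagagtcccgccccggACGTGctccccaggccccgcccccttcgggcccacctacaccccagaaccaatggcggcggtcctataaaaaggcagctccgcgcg
Bnip3: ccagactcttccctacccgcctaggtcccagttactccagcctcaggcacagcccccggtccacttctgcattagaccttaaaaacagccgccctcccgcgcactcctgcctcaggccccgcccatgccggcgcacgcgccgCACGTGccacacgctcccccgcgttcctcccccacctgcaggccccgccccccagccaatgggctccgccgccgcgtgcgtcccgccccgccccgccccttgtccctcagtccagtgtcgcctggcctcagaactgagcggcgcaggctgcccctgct
Pgk1: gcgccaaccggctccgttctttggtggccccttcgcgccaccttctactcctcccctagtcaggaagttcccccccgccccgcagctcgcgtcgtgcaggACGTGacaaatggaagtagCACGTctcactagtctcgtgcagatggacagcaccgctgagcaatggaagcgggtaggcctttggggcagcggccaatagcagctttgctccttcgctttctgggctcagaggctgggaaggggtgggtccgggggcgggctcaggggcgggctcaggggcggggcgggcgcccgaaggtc

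Each of these genes stood higher in the Mmp10-led cells. Bnip3 was at 584 against 163 CPM, and Pgk1, a glycolytic kinase, was at 823 against 356 CPM, a ratio of 2.31 (1.95 to 2.76). The matches lay at 36 bases before the start of Slc2a1, at 108 and 107 before that of Bnip3, and at 150 and 131 before that of Pgk1.

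Against Pi16+ barcodes of the same library, the cells differed by the rule in Pi16 and, beside it, in a group of adventitial genes. Over 1824 genes, 102 (5.59%) were at least 2-fold higher and 62 (3.4%) at least 2-fold lower in the cells of both libraries. Of the 13 adventitial genes measured, 10 were lower in both and none higher, Pi16 itself among them, at 0 against 2799 and 2720 CPM. Clec3b stood at 360 against 4057 CPM in sensitive and 735 against 3921 in resistant tumors, ratios of 0.0888 (0.0799 to 0.0983) and 0.188 (0.155 to 0.225). Cd55, a complement-decay protein, had ratios of 0.109 (0.0663 to 0.169) and 0.116 (0.0239 to 0.340), and Sema3c, a secreted semaphorin, 0.154 and 0.0803. Igfbp5, an insulin-like growth factor binding protein, and Lbp, the lipopolysaccharide-binding protein, were lower in both as well. The Clec3b level of these cells thus lay below that of Pi16+ cells although Clec3b led a cluster of them.

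The genes highest against Pi16+ barcodes were those of the Mmp10-led cells. Mmp10 was at 331 against 0.333 CPM in sensitive and 980.5 against 0.138 CPM in resistant tumors. Grem1, which encodes the BMP antagonist gremlin 1, was at 1269 against 8.10 and 393.5 against 0.276 CPM. Inhba had ratios of 38.8 (33.5 to 45.2) and 19.95 (12.8 to 30.6), Wnt5a, a noncanonical Wnt ligand, 15.1 (11.9 to 19.2) and 29.2 (17.0 to 49.4), and Cyp26b1, which breaks down retinoic acid, 13.5 (8.80 to 21.1) and 35.9 (23.6 to 54.4). The others named by the rule were Pla2g7, Hmga2, Col7a1, Tnfrsf9 and Cd53. Of hypoxia and glycolysis genes 12 of 16 were at least 2-fold higher in both libraries, and 6 of 14 were when cells with a stricter exclusion gene were left out. Of TGF-beta pathway genes 6 of 11 were higher, and 4 of 10 without those cells. In the resistant library the hypoxia and glycolysis list summed to 18970 CPM in the 4 Mmp10-led and 2882 CPM in the 8 Clec3b-led cells. Resistant Pi16+ barcodes stood at 3418 CPM for this list. Contractile barcodes stood at 7899 CPM in sensitive and 6228 CPM in resistant tumors, beside 8718 and 8670 CPM in the cells.

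**Figure D3:**
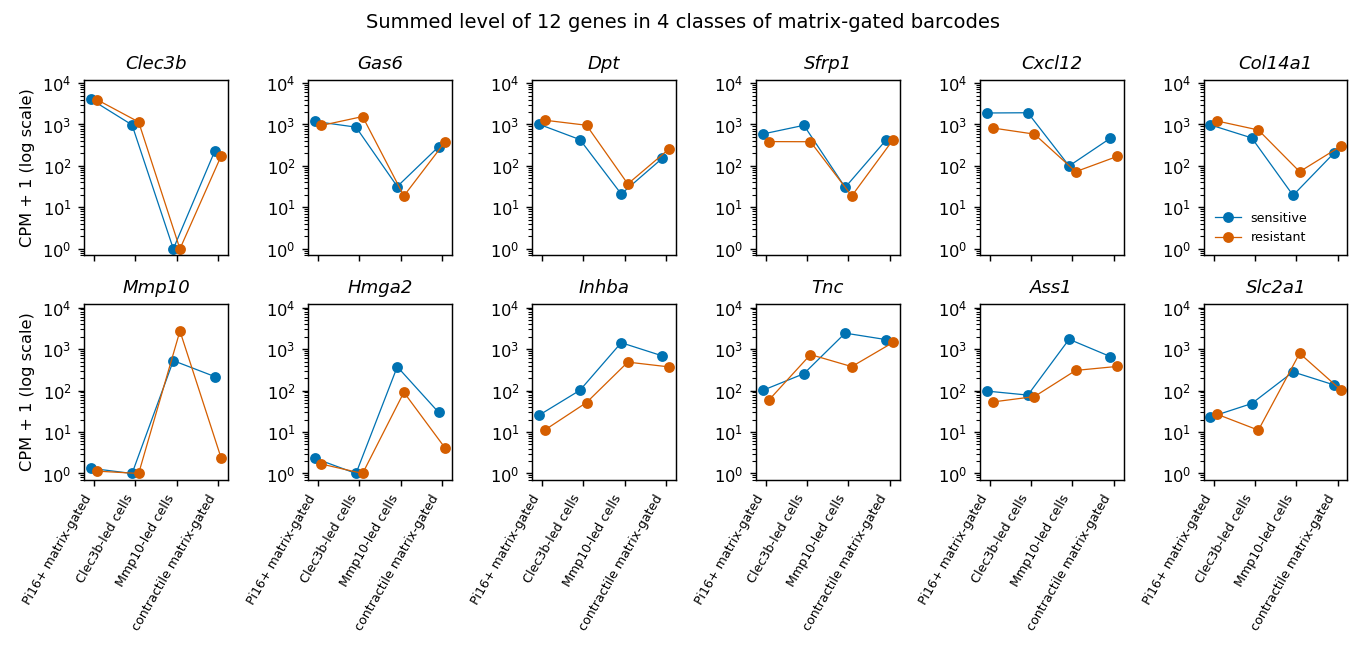
Level of 6 genes higher in the Clec3b-led cells (upper row) and 6 higher in the Mmp10-led cells (lower row) over both libraries, as CPM plus 1 on a log axis, in Pi16+ barcodes, Clec3b-led cells, Mmp10-led cells and contractile barcodes of each library (1 point a library, no error bars, lines join a library). Mmp10 is at 0 in Clec3b-led cells and below 1 CPM in Pi16+ barcodes, while Clec3b is at 4057 and 3921 CPM in Pi16+ barcodes and at 0 in Mmp10-led cells, and Tnc is the gene whose order turns in the resistant library.

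In the sensitive library, where both clusters had enough cells to be set apart, the Clec3b-led cells differed from Pi16+ barcodes in fewer genes. They had 22 of 1422 genes (1.55%) at least 2-fold higher and 62 (4.36%) lower. Mmp10-led cells had 164 of 1523 (10.8%) higher and 201 (13.2%) lower. Adventitial genes were lower in 9 of 13 for Clec3b-led and 11 of 13 for Mmp10-led cells. Each count includes Pi16, which the rule set to 0 in the cells. Cd34, a sialomucin of stem and stromal cells, stood at 0.215 (0.155 to 0.291) and 0.339 (0.279 to 0.408) of the Pi16+ level, and Clec3b at 0.240 (0.216 to 0.266) in the Clec3b-led cells. Complement genes were lower in 1 of 9 and 8 of 9, and C3 stood at 0.599 (0.563 to 0.636) and 0.135 (0.123 to 0.149) of the Pi16+ level. Hypoxia and glycolysis genes were higher in 3 of 11 and 11 of 14. Of fat-associated genes, Fabp4, a fatty acid carrier, stood at 5.05 (4.47 to 5.69) and 3.81 (3.41 to 4.24) times the Pi16+ level, and Apoe at 4.74 (4.28 to 5.25) times in the Clec3b-led and 0.0560 (0.0256 to 0.106) times in the Mmp10-led cells. The numbers of genes measured differ because the clusters differ in UMIs.

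Against contractile barcodes, 58 of 1803 genes (3.22%) were at least 2-fold higher and 26 (1.44%) lower in both libraries. The lowest were Acta2 and Tagln, which the rule used, at 27.3 against 2914 and 156 against 3271 CPM in the sensitive library. Next came Pi16, which the rule also set, and Prss23. Ccn2, a matricellular growth factor of contractile cells, followed at 201 against 1128 CPM in sensitive and 193.5 against 1023 in resistant tumors. Of 12 contractile genes measured, 7 were lower, Acta2 and Tagln among them. The highest were Cyp26b1, the interferon-induced membrane gene Ifitm1, and Hp, which encodes haptoglobin and stood at 436 against 45.7 CPM in sensitive and 510 against 41.1 in resistant tumors. Contractile barcodes shared part of the Mmp10-led profile, with Tnc at 1685 and 1443 CPM and Inhba at 682 and 370 CPM in the sensitive and resistant library, and Mmp10 at 217 CPM in the sensitive but 1.33 CPM in the resistant. Set against contractile barcodes of the sensitive library, the Mmp10-led cells had 104 of 1528 genes (6.81%) higher and 103 (6.74%) lower, of which hypoxia and glycolysis genes gave 4 of 15 higher.

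Between the libraries, the cells of the sensitive library were compared with those of the resistant library over the same 1758 genes. At least 2-fold higher were 147 genes (8.36%) and at least 2-fold lower 69 (3.92%), and the median ratio was 1.05. With the rule applied after thinning, 183 of 5407 genes were higher and 85 lower. With 12 resistant cells, single cells set many of these values, and the share of the richest cell is given where it passes 50% in the library in which the gene was higher. Not all of the 91 genes chosen for naming that passed 2-fold are described here. Of these 91 genes, 71 stayed past 2-fold when the richest cell of each gene was left out of each library. Without cells that carried a stricter exclusion gene 64 of 90 did, and with the rule applied after thinning, to 125 and 73 cells, 42 did. Leaving out the richest cell took 1 of 69 sensitive but 1 of 12 resistant cells, so it tends to raise the ratio. Of 1502 genes, 253 were then called higher and 21 lower.

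The IL-17 receptor and response list had the largest share of genes higher in the sensitive library among the lists described here. Of its 13 measured genes, 9 were called higher and none lower, at a median of 2.57. The list held Saa3, an acute-phase serum amyloid gene, the chemokine genes Cxcl1, Cxcl5, Ccl2 and Ccl7, the stromelysin gene Mmp3, and Tnfaip3, Nfkbia and Cebpd, regulators of NF-kappaB or C/EBP signaling, all higher. Cxcl5 turned to 0.930 with cells thinned to 5000 UMIs. Without the Mmp10-led cells 7 of 10 were higher, and with the rule applied after thinning 9 of 20, and in each case 5 of the 9 were among them. Without cells that carried a stricter exclusion gene only 2 of 11 were higher and 1 was lower, at a median of 1.62. Of 17 inflammatory fibroblast genes, which share Saa3 and the chemokine genes with that list, 8 were higher and 1, the alarmin gene Il33, was lower, with 95.2% of its resistant UMIs in 1 cell. The direction of Il33 turned in 4 alternatives, at 2.11 with the rule applied after thinning, 4.52 without cells that carried a stricter exclusion gene, 2.89 in Clec3b-led cells alone and 4.35 without the richest cell. Without cells that carried a stricter exclusion gene 6 of 16 inflammatory genes were higher and 2 lower, and 4 of the 8 were among the higher ones.

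Saa3 (ENSMUSG00000040026, chromosome 7, 46711998 to 46715700, minus strand) had 5697 UMIs in 40 of 69 sensitive and 41 UMIs in 3 of 12 resistant cells. It ranged from 0 through a median of 1.31 to 953 per 10000 UMIs in the sensitive and from 0 through 0 to 32.5 in the resistant cells. Most cells of both libraries were low and a few sensitive cells were very high, so the ranges overlapped. The CPM ratio was 21.0 (15.5 to 29.3), and from 3.48 to 61.0 over the alternatives. Pi16+ barcodes carried Saa3 at 5324 CPM in sensitive and 3795 CPM in resistant tumors, T cell-gated barcodes at 418 and 13.0 CPM, and myeloid-gated barcodes at 2281 and 300 CPM, so the resistant cells described here, at 264.5 CPM, lay below their own library's Pi16+ barcodes.

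Of the chemokine genes in these lists, Cxcl1, a neutrophil attractant, had a ratio of 3.72 (2.96 to 4.74), Ccl2, a monocyte attractant, 4.49 (3.46 to 5.92), Ccl7 2.33 (1.94 to 2.82) and Cxcl14 2.92 (2.27 to 3.83). The direction of Ccl2 and Ccl7 turned when the rule was applied after thinning, at 0.696 and 0.960. Cxcl12 had 1.93 (1.49 to 2.54) and Cxcl2 1.02 (0.784 to 1.34), neither past 2-fold. Ptgs2, the inducible prostaglandin synthase COX-2, had 7.08 (2.99 to 22.01). Cxcl1 was at 1.52 without cells that carried a stricter exclusion gene, and after thinning of the rule Cxcl14 was at 1.502 and Ptgs2 at 1.77.

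Of 10 genes of IL-4 and IL-13 receptors and responses 5 were higher and 1, the matricellular gene Postn, was lower, at 0.429 (0.380 to 0.486), and at 0.565 with the rule applied after thinning. The higher ones were Ccl2 and Ccl7, already given, Tnc, which turned to 0.345 in Clec3b-led cells alone, and Il13ra2, a decoy receptor of IL-13, at 3.38 (1.74 to 7.495), which stayed past 2-fold under every alternative run, and Fcgr2b, the inhibitory Fc receptor, at 6.16 (2.36 to 22.9), which was at 1.60 with cells thinned to 5000 UMIs. Without cells that carried a stricter exclusion gene 4 of 10 were higher and 2 lower, and in Clec3b-led cells alone 3 of 6 were higher and 2 lower. Immediate early genes were higher in 6 of 22 and lower in none, at a median of 1.55, led by Klf2 (7.80, 4.21 to 16.4), Socs3 (5.13, 2.97 to 9.71) and Nr4a1 (4.52, 2.26 to 10.6). Without cells that carried a stricter exclusion gene 2 of 19 were higher, and Klf2 was at 1.55. Hypoxia and glycolysis genes gave 0 of 16 in either direction at a median of 1.06.

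**Figure D4:**
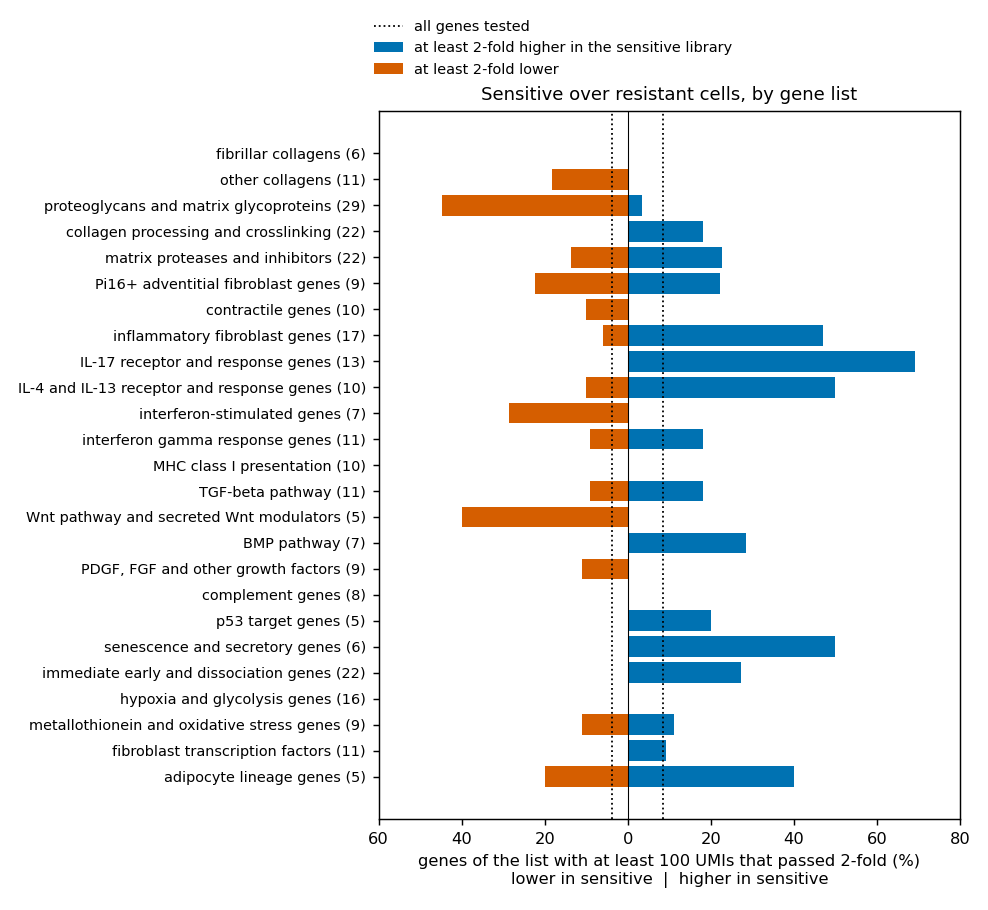
Percent of the measured genes of each list that were at least 2-fold higher (bars to the right) or lower (bars to the left) in the sensitive cells, for lists with 5 or more genes measured (their number in brackets), with dotted lines at 8.36% and 3.92%, the shares over all genes. The IL-17 response list reaches furthest to the right, with 9 of 13 genes, and the proteoglycan and matrix glycoprotein list furthest to the left, with 13 of 29.

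Proteoglycans and matrix glycoproteins were the list with the largest share of genes lower in the sensitive library. Of 29 measured genes 13 were called lower and 1, Tnc, higher (0.345 in Clec3b-led cells alone), at a median of 0.616. Without cells that carried a stricter exclusion gene 8 of 25 were lower at a median of 0.914, and 7 of these were among the 13. With the rule applied after thinning 7 of 34 were lower at a median of 0.781. Among them were Eln, the elastin gene (0.0761, 0.0570 to 0.101), Mfap4 and Mfap5, microfibril-associated proteins (0.157 and 0.380), Mgp, matrix Gla protein (0.195, but 1.58 with the rule applied after thinning and 1.30 without cells that carried a stricter exclusion gene), Thbs2, thrombospondin 2 (0.224, 0.192 to 0.262), and the small leucine-rich proteoglycans Ogn (0.290) and Aspn (0.292). When the richest cell was left out of each library for each gene, 3 of 24 were lower, all 3 among the 13, and as a mean over cells 4 of 29 were. Leaving out the richest cell tends to raise the ratio, since 12 resistant cells stand against 69 sensitive ones. Mfap4, Ogn and Aspn had 59.7%, 62.5% and 54.5% of their resistant UMIs in 1 cell. The 151 resistant UMIs of Eln lay in 3 of 12 cells with 74.8% in 1 cell, and the 76 sensitive UMIs in 18 of 69 cells, and Eln stayed past 2-fold lower under every alternative run. With the rule applied after thinning Mfap4 was at 0.641 and Ogn at 0.534, and as a mean over cells Mfap5 was at 0.738, each short of 2-fold. Fibrillar collagens gave 0 of 6 in either direction.

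Sfrp2, a secreted Wnt modulator and 1 of the 5 markers (ENSMUSG00000027996, chromosome 3, 83766321 to 83774316, plus strand), had 549 UMIs in 38 of 69 sensitive and 721 UMIs in 7 of 12 resistant cells. It ranged from 0 through a median of 1.27 to 52.2 per 10000 UMIs in the sensitive cells and from 0 through 1.77 to 238 in the resistant cells. The medians were close with the clusters pooled, but in Clec3b-led cells alone they were 3.02 in sensitive and 29.6 in resistant cells. In Mmp10-led cells both medians were 0. The highest resistant cell lay above every sensitive one. The CPM ratio was 0.115 (0.103 to 0.129), with 37.6% of the resistant UMIs in 1 cell, and from 0.0691 to 0.601 over the alternatives. In Pi16+ barcodes Sfrp2 stood at 1544 and 2538 CPM. Of the other markers only Cpxm1, a carboxypeptidase-like collagen-binding protein, passed 2-fold, at 2.34 (1.94 to 2.85), and it was at 1.61 without cells that carried a stricter exclusion gene. It had UMIs in 50 of 69 and 9 of 12 cells.

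The highest ratio was that of Car4, a membrane-bound carbonic anhydrase (ENSMUSG00000000805, chromosome 11, 84957786 to 84966044, plus strand). It had 783 UMIs in 20 sensitive cells and 1 UMI in 1 resistant cell, a ratio of 118 (21.2 to 4684). It ranged from 0 through 0 to 34.4 per 10000 UMIs in the sensitive cells and was at 0.657 in the single resistant cell that had it. In Pi16+ barcodes Car4 stood at 275 CPM in sensitive and 16.01 CPM in resistant tumors and in contractile barcodes at 256 and 10.2 CPM, so its gap was seen in all matrix-gated classes of these libraries. Crabp1 followed with 570 and 1 UMIs (86.2, 15.4 to 3411), in 13 sensitive cells, 10 of them Mmp10-led. Crabp1 stood at 30.9 and 23.6 CPM in Pi16+ and at 176 and 69.0 CPM in contractile barcodes.

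The other genes among the 15 highest, Saa3 aside, were in 4 to 35 sensitive cells. Cd53, a tetraspanin of leukocytes, had 467 UMIs in 20 sensitive and 7 UMIs in 3 resistant cells (10.1, 4.86 to 25.2), with 15 of the 20 cells Mmp10-led, and stood at 351 and 203 CPM in T cell-gated barcodes. Csrnp1 and Nfil3, both transcription factors, were seen in 27 and 30 sensitive cells and in 1 resistant cell each, at ratios of 18.3 (3.22 to 729) and 16.03 (2.82 to 639). Rasl11a, a small GTPase gene, had 11.2 (3.04 to 93.3). Apoe had 11.5 (5.23 to 31.4), Upp1 19.7 (3.47 to 783), Ereg, the growth factor epiregulin, 18.8 (3.31 to 747), Slpi 19.2 (8.76 to 52.4) and Srgn, the proteoglycan serglycin, 10.3 (5.70 to 20.6). Of these, Upp1, Rasl11a, Slpi, Srgn and Apoe drew 54.6%, 56.8%, 65.7%, 70.9% and 74.7% of their sensitive UMIs from 1 cell. Col6a5, a type VI collagen gene, had 15.3 (2.68 to 609) and in Pi16+ barcodes stood at 363 CPM in sensitive and 9.52 CPM in resistant tumors. Pcolce2, an enhancer of procollagen processing, had 8.77 (2.95 to 43.0) and was seen in 35 sensitive and 2 resistant cells. Cxcl10, an interferon-induced chemokine, had 47.8 (8.52 to 1894) from 4 sensitive cells, and 65.8% of it from 1 cell. Several of these fell short of 2-fold in an alternative. In Clec3b-led cells alone Cxcl10 was at 1.05 and Slpi at 1.49, with cells thinned to 5000 UMIs Ereg was at 1.12 and Col6a5 at 1.54, and with the rule applied after thinning Pcolce2 was at 1.48 and Srgn at 1.61.

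Genes with the lowest ratios were mostly held by 1 resistant cell. Cxcl9, another interferon-induced chemokine, had 8 sensitive and 119 resistant UMIs (0.0102, 0.00429 to 0.0207), with 96.6% of the latter in 1 cell, and after thinning of the rule its ratio was 3.43. Ccn3, a matricellular gene, had 0.0303 (0.0175 to 0.0499), with 96.8% in 1 cell, and turned to 1.14 without cells that carried a stricter exclusion gene. For Thbs4, thrombospondin 4 (0.169), and Mgp, 84.4% and 83.3% were in 1 cell. Cilp, a cartilage matrix protein gene that restrains TGF-beta signaling (0.0580, 0.0361 to 0.0908, with 68.5% in 1 of 4 resistant cells), Col8a1, a short-chain collagen gene (0.160, 0.121 to 0.210), and Thbs2 stayed past 2-fold under every alternative run, with Thbs2 seen in 9 of 12 resistant cells and 40 of 69 sensitive ones. Fibin, a secreted protein gene, was seen in 7 of 12 resistant and 23 of 69 sensitive cells (0.211, 0.148 to 0.303). Fbln7 (0.0615), Sfrp4 (0.0890) and the lipid droplet gene Hilpda (0.138) drew 68.8%, 69.6% and 66.2% of their resistant UMIs from 1 cell, and Cyp26b1 had 0.200 (0.133 to 0.305) with 41.9% in 1 cell. With the rule applied after thinning Fibin was at 0.624, Thbs4 at 0.924, Hilpda at 0.791, Cyp26b1 at 0.675 and Fbln7 at 0.513, and as a mean over cells Sfrp4 was at 0.502, each short of 2-fold.

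**Figure D5:**
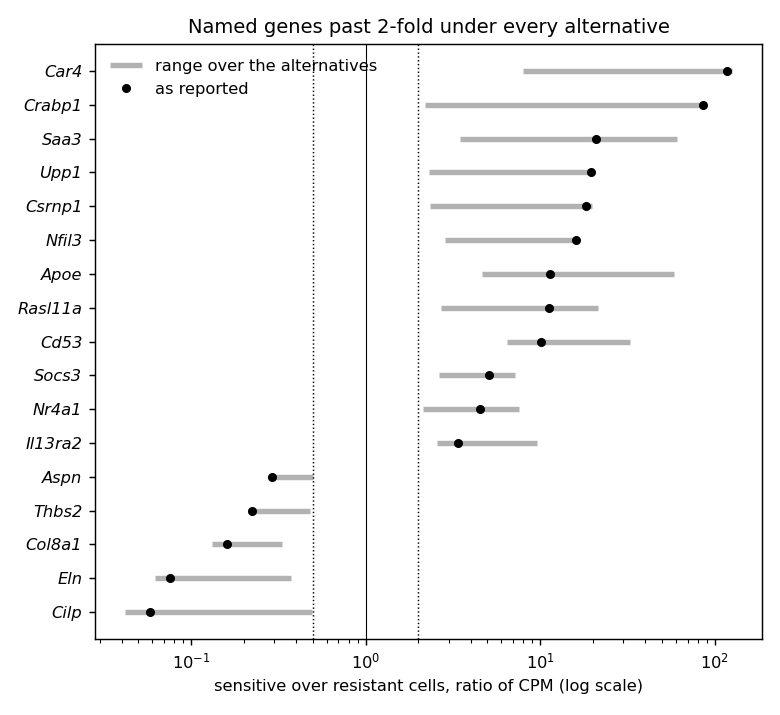
Sensitive over resistant CPM ratio (x axis, log scale) of the 17 named genes that stayed past 2-fold under every alternative run, with the reported value as a point, the range over the alternatives as a bar and dotted lines at 2-fold. Saa3 ranges from 3.48 to 61.0 and Car4 from 7.95 to 126, and Aspn comes nearest to its line, at 0.499.

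The same rule in the whole-tumor libraries found too few cells for a comparison. It found 0 of 168 kept barcodes in the sensitive-labelled library, which allows a share of up to 1.79%, 0 of 248 in the resistant-labelled one, which allows up to 1.21%, and 2 of 354 in the control-labelled one. No levels were compared there.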

How the data were processed

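Unique molecular identifier counts per gene and barcode were deposited by the authors without normalization. Per the submitters' processing notes and file headers they were made with Cell Ranger 6.0.0 (T cell) and 3.0.1 (whole tumor) on mm10, and library kinds were never compared with each other. No deposited column went unused (0). The cells, the gene lists and the alternatives were chosen with earlier results of these data known. Counts of the cells of a library were added up and scaled to CPM. Ratios had exact conditional binomial 95% intervals, shares Clopper-Pearson intervals, and a count of 0 was read as 3 counts. Genes with at least 100 UMIs were called past 2-fold, with no test. The sensitive over resistant comparison was tested on simulated data with counting error alone, where 100 of 100 genes made 4-fold higher, 98 of 100 made 4-fold lower and 9 of 1558 left unchanged were called. Named genes were the rule's genes and markers, the 15 highest and 15 lowest ratios (a UMI in at least 5% of cells of a library, without mitochondrial, ribosomal protein and unnamed genes), list genes past 2-fold or with most UMIs, the 10 highest and lowest against each class, and up to 6 leading genes a cluster. Of these, the ones that illustrate each group are described. Leiden clusters used 2000 variable genes, 30 components, 15 neighbors and resolution 0.5 (scanpy 1.11.5, igraph 0.11.9). Doublets were not removed, and an alternative left out the 112 sensitive and 159 resistant barcodes with the highest Scrublet scores. Other alternatives changed depth, filters, scaling and cell choice. Gene positions are from GENCODE vM21 and promoter sequences from RefSeq. Python 3.11.15, numpy 2.4.6, scipy 1.17.1, pandas 2.3.3 and matplotlib 3.10.9 were used.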

Additional observations from a re-analysis of the deposited data

How the results depend on the processing

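No paired analysis was possible because each group has 1 library. The number of cells limits every ratio: 12 resistant cells hold 155017 UMIs. Applying the rule after thinning to 3000 UMIs moved the shares of kept barcodes to 4.68% and 2.76%, and of matrix-gated barcodes to 16.4% and 12.1% (sensitive, resistant). Asking for 5 of 6 matrix genes gave 1.49% of kept sensitive barcodes, and leaving out cells with a stricter exclusion gene 6.67% of matrix-gated ones. The other shares moved by less than their intervals. The numbers of genes higher and lower in the sensitive cells were 36 and 12 of 406 with cells thinned to 5000 UMIs, 757 and 411 of 6244 with at least 20 UMIs, 31 and 13 of 361 with at least 500, and 316 and 181 at 1.5-fold. Alternatives chosen after seeing the data gave 253 and 21 of 1502 without the richest cell of each gene, and 69 and 39 of 724 in Clec3b-led cells alone. Thinning to 5000 UMIs left 38 genes higher and 45 lower in Mmp10-led than Clec3b-led cells, a finer resolution gave 5 clusters, and 6 of 14 hypoxia genes, all among the 12 reported, were higher than in Pi16+ barcodes without cells carrying a stricter exclusion gene. Settings for clusters and for the Pi16+ comparison were also chosen after seeing the data. Causes were not tested, except that fewer genes pass a higher count minimum. Of the 91 named genes past 2-fold, 17 stayed so under every alternative and 16 changed direction in at least 1. Directions changed for Cd74 (0.334) and Hmox1 (1.05) without doublet scores at the top. After thinning of the rule they changed for Ccl2 (0.696), Ccl7 (0.960), Cxcl9 (3.43), Fabp5 (1.29), Hmox1 (1.01), Il33 (2.11), Mgp (1.58), Mmp10 (2.36) and Timp3 (0.908). With 5 of 6 matrix genes Fabp5 gave 2.80. Without a stricter exclusion gene Ccn3 gave 1.14, Cd74 0.632, Fabp5 3.11, Il33 4.52, Mgp 1.30 and Tgfb1 1.04. As a mean over cells Clec3b gave 1.46, and with cells thinned to 5000 UMIs Cxcl5 gave 0.930. In Clec3b-led cells alone Cd74 gave 0.525, Fabp5 6.24, Hmox1 2.10, Il33 2.89, Mmp9 0.525 and Tnc 0.345. Without the richest cell Cd74 gave 0.821, Fabp5 1.93 and Il33 4.35.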
